A study of Mus musculus with 4 samples.

Results

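Topologically associating domains (TADs) that contain no start of any protein-coding gene were collected from the TAD lists of hepatocytes cultured in 2D and 3D. A member is an autosomal TAD of at most 2000 kb in which no protein-coding gene of the GENCODE annotation (release M21, GRCm38) has its 5′ end. In 2D, 250 of 3997 autosomal TADs of at most 2000 kb were members, which is 6.25% (95% Wilson interval 5.55 to 7.05%). In 3D, 188 of 3861 were members, which is 4.87% (4.23 to 5.59%). Together these are 438 TADs of the 8822 in the complete lists, 4467 of them called in 2D and 4355 in 3D. Gene content and size chose the members, so both are given as a description, with no test.

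The cells were AML12, an immortalized hepatocyte line derived from a mouse carrying a human transforming growth factor alpha transgene. They were grown either as a monolayer in dishes (2D) or as spheroids embedded in Matrigel (3D), and chromatin contacts were measured by in situ Hi-C with the restriction enzyme MboI. Hydroxyurea, which depletes nucleotides and so stalls cells before S phase, was given at 1 mM to the monolayer for 24 h and to the spheroids for 36 h, so the culture and the length of exposure cannot be told apart. There were 2 biological replicates of each culture, which the authors combined before calling TADs, and every result concerns a single cell line. The 2 resulting lists place TADs to the nearest 40 kb bin and hold no read counts, so neither the depth of a TAD nor a replicate error can be taken from them. The paper reports fewer read pairs in total for the spheroids than for the monolayer, and a larger share of contacts between chromosomes. It also reports a high correlation of contacts between replicates. Each chromosome was scaled to equal depth before TADs were called. Whether depth bears on the differences between the lists was not tested. TADs are not replicates of a culture, and no p-value was computed across them. All intervals are 95% binomial intervals that cover counting error only. Expression was not analysed here, and the hepatocyte identity of the cells was not checked against marker genes.

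A TAD is a stretch of chromosome whose parts contact each other more often than they contact the flanking sequence, and many TAD borders are bound by the insulator protein CTCF together with cohesin. Parts of the mammalian genome, called gene deserts, hold long distances without a protein-coding gene, and deserts beside developmental genes often contain distant enhancers of those genes. A TAD without a gene start may also lie inside the body of a single long gene, or hold only non-coding genes such as long non-coding RNAs (lncRNAs) and microRNAs (miRNAs), the short RNAs that repress messenger RNAs paired with their seed.

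MicroRNA genes were the non-coding genes in the members whose products are best characterized. In 2D, 52 annotated miRNA genes started in 42 members, and in 3D, 43 started in 35 members. These are 16.8% and 18.6% of the members, against 24.5% and 26.5% of the eligible TADs with coding starts. Over both lists these were 64 distinct genes, of which 31 lay in members of both cultures, 21 in members of 2D alone and 12 in members of 3D alone. For comparison, 46.6% of the length of 2D members and 64.5% of that of 3D members lay in members of the other culture. A mature sequence was found in RefSeq (GRCm38.p6) for 29 of the 52 and 22 of the 43. The mature sequences below, 5′ to 3′ with the seed (bases 2 to 8) in capitals, are shown because their genes stand in members named in the following paragraphs. The first 3 share the let-7 seed, and the next 2 share the miR-29 seed.

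let-7b-5p: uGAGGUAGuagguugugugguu
let-7c-5p: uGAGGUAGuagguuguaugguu
let-7i-5p: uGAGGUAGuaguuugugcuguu
miR-29a-3p: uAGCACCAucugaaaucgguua
miR-29b-3p: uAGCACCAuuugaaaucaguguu
miR-148a-3p: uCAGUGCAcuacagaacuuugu
miR-21a-5p: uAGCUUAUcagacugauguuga
miR-100-5p: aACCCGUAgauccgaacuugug
miR-125b-5p: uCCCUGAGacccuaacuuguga
miR-193b-3p: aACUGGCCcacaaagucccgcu
miR-205-5p: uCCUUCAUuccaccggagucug
miR-155-5p: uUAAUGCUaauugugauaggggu

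At the borders, a 12-base core of the CTCF recognition sequence (CC, any base, C, any base, then AGGGGGC) was searched on both strands of GRCm38. In 2D, 15.4% of the 479 distinct member borders (12.5 to 19%) had a match within an 80 kb window centred on the border, against 20.6% of the other 5072 borders (19.5 to 21.7%). In 3D the shares were 14.4% of 361 (11.2 to 18.4%) and 21.2% of 4701 (20 to 22.4%). Of all 80 kb windows on the autosomes, 10.2% held a match, so borders of both kinds lay above that share and member borders lay below the others. Inside the members, 4.05% of the 40 kb bins in 2D and 4.42% in 3D held a match, against 6.76% and 7.03% in the TADs with gene starts and 5.37% of all autosomal bins. A match is a description of the letters and not a site of binding. The fixed letters of the core are nearly all G or C, and median GC content was lower in members than in other TADs. GC content was not held fixed in these shares, and its part in them was not tested. The matches in the windows of 3 regions described below are shown with the matched letters in capitals. Most member borders held no match, so these lines are not typical of the members.

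chr1:75597821-75597850 (minus strand), at the left border of the Epha4 desert: aacactctgCCACTAGGGGGCagcatatcc
chr9:41205458-41205487 (minus strand), at the left border of the Mir100 TAD: gcctgttctCCACAAGGGGGCagagtttga
chr9:41982741-41982770 (plus strand), at the right border of the Mir100 TAD: tgtcaggtcCCTCCAGGGGGCaatcccgtg
chr17:62459095-62459124 (minus strand), at the left border of the Efna5 member: ccgatccatCCACCAGGGGGCagtaaatta

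The members were small. Their median size was 160 kb in both lists (95% order-statistic interval 160 to 160 kb in 2D and 160 to 200 kb in 3D), with quartiles of 120 and 270 kb in 2D and of 120 and 240 kb in 3D. The median of the TADs with at least 1 start was 240 kb in both lists. The shortest size in the lists, 120 kb, made up 101 of the members in 2D and 70 in 3D, and at that size members were 10.9% (9.02 to 13%) and 10% (7.99 to 12.4%) of all TADs. Among TADs of 640 to 2000 kb the members were 24 of 619 in 2D, 3.88% (2.62 to 5.7%), and 17 of 624 in 3D, 2.72% (1.71 to 4.32%). At 280 to 600 kb the shares were 3.89% (2.86 to 5.27%) and 2.39% (1.67 to 3.41%), so the share fell from 120 kb to this class and was similar above it. A shorter interval has less room for a gene start by construction. In every size class the 3D share was the lower one, with overlapping intervals.

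**Figure D1:**
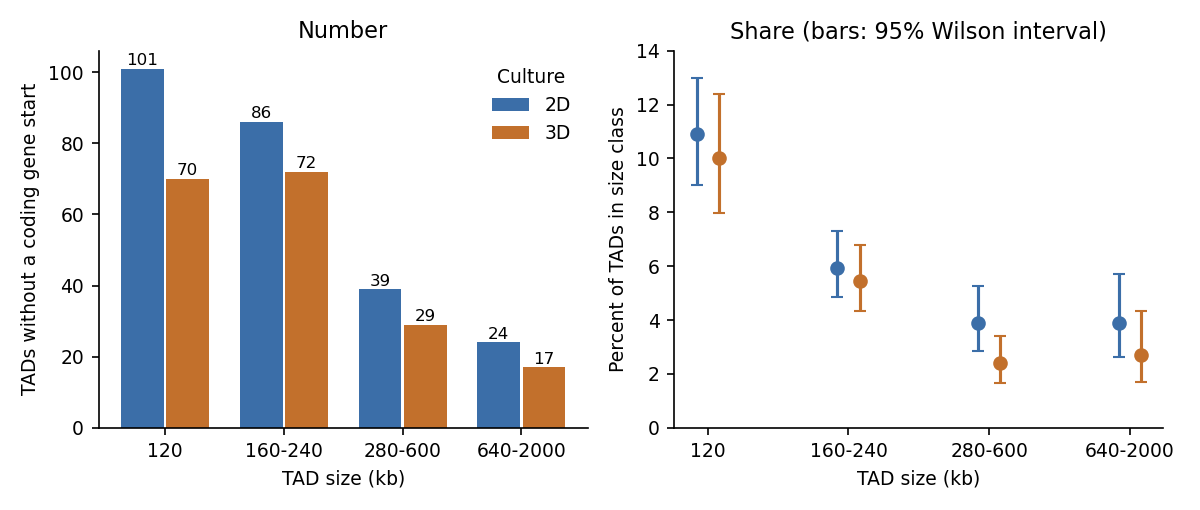
The left panel plots the number of TADs without a protein-coding gene start against TAD size in kb for the 2D and 3D lists, and the right panel plots their percentage of all autosomal TADs of that size, with 95% Wilson intervals as bars. The 120 kb class holds 101 members in 2D and 70 in 3D and has the highest share in both lists.

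Members covered 70.1 Mb in 2D and 50.7 Mb in 3D, which is 4.7% and 3.36% of the length of all eligible TADs. Of this sequence 32.7 Mb lay in members of both lists. At the edges of the rule, the longest members measured 1880 kb in 2D and 1760 kb in 3D, whereas 8 autosomal TADs in 2D and 10 in 3D also had no start but exceeded 2000 kb, the smallest of them at 2160 and 2120 kb. A single start kept 899 TADs outside in 2D and 743 in 3D. By chromosome, the share in 2D was highest on chromosome 7 (26 of 239 TADs, 10.9%) and lowest on chromosome 9 (2 of 216, 0.926%), and in 3D highest on chromosome 16 (13 of 143, 9.09%) and lowest on chromosome 11 (4 of 237, 1.69%).

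Most members stood alone between TADs with gene starts or unassigned intervals. In 2D there were 211 single members, 15 pairs of abutting members and 3 runs of 3, and in 3D there were 160 single members, 11 pairs and 2 runs of 3. The run at chr6:50680001-51400000 in 2D was nearly the same in 3D, where it ended at 51360000, and its last TAD contained Mir148a. The longest run, at chr7:90480001-92560000 in 2D, measured 2080 kb and consisted of 960, 640 and 480 kb TADs. In 3D the run with the greatest length was the pair at chr7:90480001-92080000, of 1600 kb, and the longer of the 2 runs of 3 was chr10:11360001-12640000, of 1280 kb, ending in Utrn, the utrophin gene. The first 2 TADs of the chromosome 7 run in 2D lay whole inside Dlg2, which encodes a scaffold protein of the synapse, and the same 2 were members in 3D.

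With 1 start counted per gene, members overlapped by a coding gene outnumbered members lying between genes. In 2D, 164 of 250 members (65.6%, 59.5 to 71.2%) were overlapped by the body of a protein-coding gene that starts elsewhere, and 63 (25.2%, 20.2 to 30.9%) were covered whole by 1 gene. In 3D, 132 of 188 (70.2%, 63.3 to 76.3%) were overlapped and 50 (26.6%, 20.8 to 33.3%) were covered whole. The remaining 86 members in 2D and 56 in 3D were free of coding gene bodies. The overlapping genes, 180 in 2D and 149 in 3D, had median lengths of 177 and 176 kb, against 17.6 kb for all autosomal coding genes. A longer gene has more room for a TAD inside it, so this contrast is in part fixed by the rule. Membership also depended on which start is counted, because requiring that no transcript of a coding gene start inside left 124 members in 2D and 83 in 3D. Under that rule the direction turned, with 30.6% and 32.5% of members overlapped by a gene body.

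Genes that covered members whole numbered 58 in 2D and 48 in 3D, with median lengths of 245 and 282 kb. Dlg2, of 1973 kb, contained 2 members of 960 and 640 kb in both lists, and the larger one, chr7:90480001-91440000, was the longest fully covered member of the 3D list. Nav2, a gene of 701 kb that encodes a neuron navigator protein, contained members of 360 and 120 kb in both. Pde4d, which encodes a phosphodiesterase that degrades cyclic AMP and spans 1504 kb, contained members of 520 and 160 kb in 2D, and in 3D a single member of 680 kb took up the same interval. Kcnip4, which encodes a protein that binds potassium channels, covered the 960 kb member chr5:48400001-49360000 in 2D, the first in genome order of the longest fully covered ones. In 3D that interval was part of a TAD of 2040 kb with 2 starts. Vps13b, which encodes a lipid transfer protein, contained members of 120 and 160 kb in 2D and of 120 and 320 kb in 3D. Exoc4, for a subunit of the exocyst, and Itpr2, for a calcium channel of the endoplasmic reticulum, each contained a pair of members in 2D (120 and 120 kb, and 160 and 120 kb), and Itpr2 contained 1 of 240 kb in 3D. Fgfr2 also covered 2 members in 2D (160 and 120 kb) and 1 in 3D (120 kb), in a gene model of 2961 kb in this annotation that extends over Tacc2 and Ctbp2.

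Most members had a coding gene start close by. No such distance is given for other TADs, so this is not shown to be particular to the members. The nearest protein-coding start outside a member was at a median distance of 30.3 kb in 2D (quartiles 8.98 and 96.2 kb) and 25.3 kb in 3D (7.77 and 92.2 kb), and the greatest distances were 569 and 684 kb. In 140 members in 2D (56%) and 114 in 3D (60.6%) a start lay within 40 kb of an end, that is within 1 bin, so a border called 1 bin further out would have taken these TADs out of the set. The nearest genes on either side were 428 distinct genes in 2D and 326 in 3D. This is 2.06% and 1.57% of the 20780 autosomal coding genes counted for this share, while the annotation holds 20807.

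In a list of 24 hepatocyte genes, 1 was a neighbour in each culture, namely Ppara, the nuclear receptor that drives fatty acid oxidation. In a list of 48 developmental regulators, 6 were neighbours in 2D (Sox9, Pax3, Nr2f2, Foxp1, Gata6 and Epha4) and 5 in 3D (Pax3, Pitx1, Foxp1, Gata6 and Epha4). Pax3, Foxp1, Gata6 and Epha4 thus flanked members of both lists. These genes encode transcription factors, apart from Epha4, which encodes an ephrin receptor. In a list of neuronal adhesion and other long genes, 13 of 52 autosomal genes were neighbours in 2D (25%) and 12 in 3D (23.1%). Dlg2, Nrxn3, Cdh2, Cdh18, Pcdh9, Robo1, Ntm and Opcml were neighbours in both, Cdh6, Cdh9, Pcdh15, Tenm2 and Kcnip4 in 2D alone, and Lrp1b, Magi2, Pcdh17 and Tenm4 in 3D alone. Over all autosomal coding genes, 2.06% were neighbours in 2D and 1.57% in 3D. Gene length and spacing, which bear on which gene is nearest to a member, were not held fixed. The lists were chosen with results of these data known, and no enrichment was tested.

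Within the members, lncRNA genes were the most widespread class of non-coding RNA gene. At least 1 lncRNA started in 114 members in 2D (45.6%, 39.5 to 51.8%) and 83 in 3D (44.1%, 37.2 to 51.3%), at 3.21 and 3.22 starts per Mb. TADs with coding starts held a lncRNA start in 68.7% (67.2 to 70.2%) and 71.7% (70.3 to 73.2%) of cases, at 4.77 and 4.85 per Mb. With the TADs with starts weighted to the sizes of the members, these shares were 61.4% and 62.4%. Before this weighting the differences were -23.1 percentage points in 2D (-29.3 to -16.7) and -27.6 in 3D (-34.6 to -20.3). Among size classes, the lower share of the members was clearest at 160 to 240 kb, where it was 37.2% (27.7 to 47.8%) against 65.6% (63 to 68%) in 2D and 41.7% (31 to 53.2%) against 67.5% (64.9 to 70.1%) in 3D. It was not seen at 640 to 2000 kb in 2D, with 91.7% (74.2 to 97.7%) against 90.8% (88.2 to 92.8%), and in 3D the shares at that size were 88.2% (65.7 to 96.7%) and 90.6% (88 to 92.7%). At 280 to 600 kb the intervals overlapped in both lists. How far these starts lie from coding promoters was not measured.

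Pseudogenes started in 121 members in 2D (48.4%) and 95 in 3D (50.5%), and small RNA genes other than miRNAs in 67 (26.8%) and 45 (23.9%). The TADs with coding starts, which are larger, held these classes more often, with 62.7% and 65.1% for pseudogenes and 36.9% and 39.2% for small RNA genes. Per Mb, pseudogenes were about as frequent in the members (4.29 in 2D and 4.42 in 3D) as in TADs with coding starts (4.66 and 4.58). The miRNA genes were less frequent, at 0.742 and 0.848 per Mb against 1 and 1.05. Other small RNA genes stood at 2.74 and 2.27 per Mb against 1.5 and 1.57, but this excess came from 1 array of small nucleolar RNA genes. Without the members in that array, an omission chosen after the values were seen, the densities were 1.27 and 1.15. No TAD was omitted from the other TADs in the same way, so these 2 values cannot be ranked against theirs. The array lies between Ube3a and Snurf in the imprinted region that corresponds to the human Prader-Willi and Angelman locus. In 2D it gave the members chr7:59320001-59440000 and chr7:59520001-59680000, with 46 and 57 such genes, and in 3D the member chr7:59400001-59520000, with 57. These TADs had no counterpart, and repeats made up 73.5%, 75.7% and 90.4% of them. Sequences annotated as TEC, transcripts still to be experimentally verified, started in 55 members (22%) and 40 members (21.3%), against 28.7% and 30.4% of the TADs with coding starts. Per Mb the order was the other way, at 1.68 and 1.66 in the members against 1.44 and 1.48, and a single 2D member, inside Kcnip4, held 23 of the 118 TEC starts in 2D. No annotated gene of any kind started in 39 members in 2D (15.6%, 11.6 to 20.6%) and 32 in 3D (17%, 12.3 to 23%).

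In sequence composition the members were poorer in G and C than other TADs. Their median GC content was 41.5% in 2D (quartiles 39.8 and 43.7%) and 41.7% in 3D (40.1 and 43.9%), against 44.1% for the TADs with starts in both lists. Repeats covered a median of 28.9% of the members in 2D and 28.6% in 3D, close to the 28.9% and 29.1% of the other TADs. Within the set the repeats differed by position, with medians of 36.4% and 39.2% in members free of gene bodies and of 24.2% and 24.5% in members covered whole by a gene. The recognition sites of MboI, which set how finely Hi-C can sample a region, numbered a median of 96 and 95.7 per 40 kb against 97.5 in the other TADs. Unknown bases occurred in 4 members in 2D and 0 in 3D.

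The members were compared with the other culture to ask whether a TAD without a coding start recurs at the same place. A counterpart was a TAD of the other list with both ends within 40 kb. In 2D, 104 of 250 members had a counterpart in 3D, which is 41.6% (35.7 to 47.8%), while the share over all 3997 eligible TADs was 66.7%. For the TADs with starts it was 68.3% (66.8 to 69.8%), a difference of -26.7 percentage points (-32.9 to -20.4). In 3D, 107 of 188 members had a counterpart in 2D, which is 56.9% (49.8 to 63.8%), while the share over all 3861 eligible TADs was 69.1%. The TADs with starts had 69.8% (68.2 to 71.2%), a difference of -12.8 points (-20.1 to -5.8). Weighted to the sizes of the members, the TADs with starts had counterparts in 64.3% of cases in 2D and 70.7% in 3D.

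In the 2D list the members had the lower share in each of the 4 size classes. At 120 kb it was 33.7% of 101 members (25.2 to 43.3%) against 51.9% of 829 TADs with starts (48.5 to 55.3%), and at 640 to 2000 kb it was 33.3% of 24 (18 to 53.3%) against 69.1% of 595 (65.2 to 72.7%). In the 3D list the shares at 120 kb were 52.9% of 70 (41.3 to 64.1%) and 66.7% of 630 (62.9 to 70.2%), and at 640 to 2000 kb they were 64.7% of 17 (41.3 to 82.7%) and 67.5% of 607 (63.7 to 71.1%). The intervals of members and other TADs were separate in all 4 classes in 2D, and in 3D only at 160 to 240 kb, where they were 58.3% of 72 (46.8 to 69%) and 75.9% of 1251 (73.4 to 78.1%). GC content, which also differed between members and other TADs, was not held fixed, and its part in the difference was not tested.

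**Figure D2:**
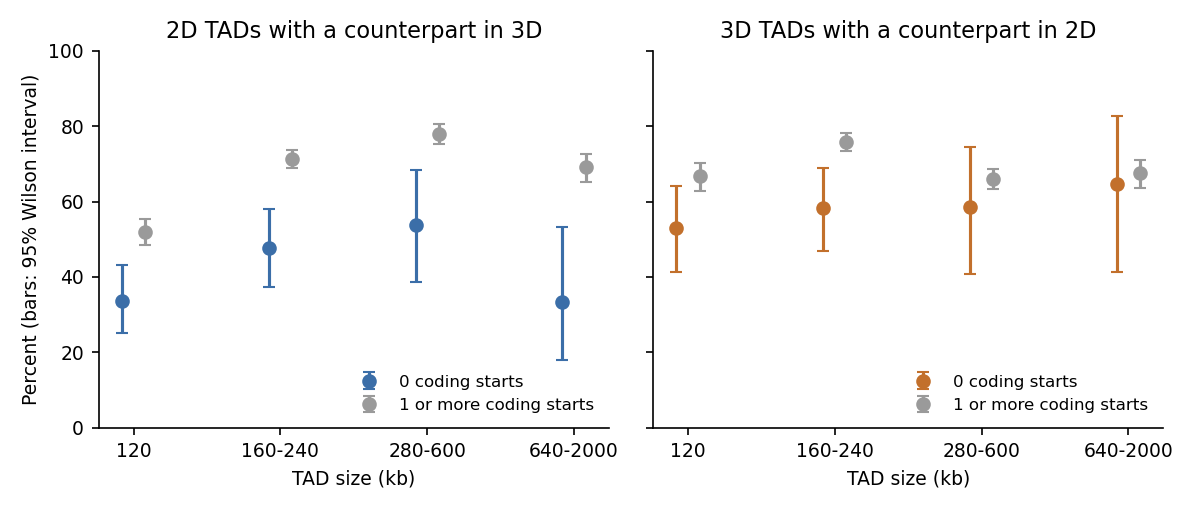
Each panel plots, against TAD size in kb, the percentage of TADs that have a counterpart in the other culture, with 95% Wilson intervals as bars, for TADs with 0 coding starts (coloured) and with 1 or more (grey). The coloured points lie below the grey ones in all classes, from 33.7% against 51.9% at 120 kb in 2D to 64.7% against 67.5% at 640 to 2000 kb in 3D.

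Grouped by gene content, the 2D shares were 41.6% at 0 starts, 62.3% at 1 start (59.1 to 65.4%), 72.1% at 2 (68.9 to 75%), 69.3% at 3 to 5 (66.8 to 71.7%) and 69.9% at 6 or more (66.3 to 73.3%). The members were the lowest group in 2D, and TADs with 1 start came next. In 3D the shares were 56.9% at 0 starts, 75.5% at 1 (72.3 to 78.5%), 74.5% at 2 (71.4 to 77.4%), 71.4% at 3 to 5 (68.9 to 73.8%) and 57.4% at 6 or more (53.9 to 60.7%). The low share in 3D was therefore not particular to the members, since the most gene-rich TADs had nearly the same one.

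**Figure D3:**
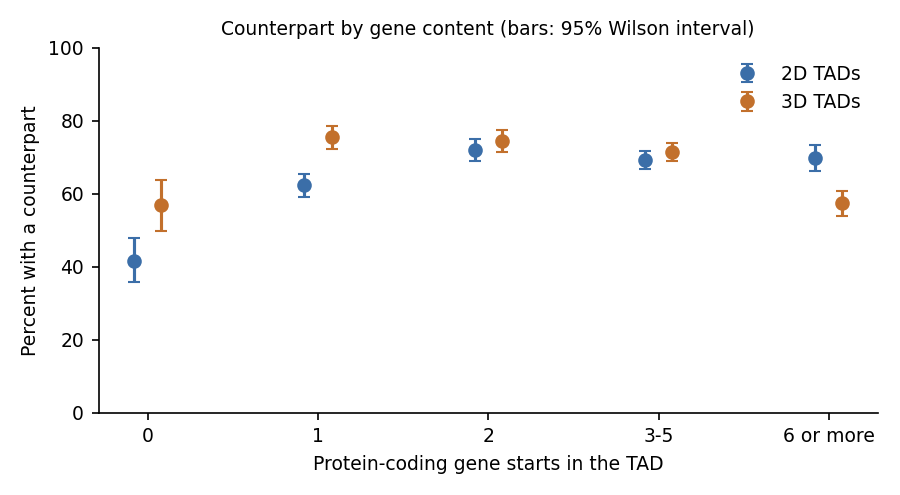
The percentage of TADs with a counterpart in the other culture is plotted against the number of protein-coding gene starts in the TAD, with 95% Wilson intervals as bars, for the 2D and 3D lists. TADs with 0 starts are lowest in 2D (41.6%), whereas in 3D they stand at 56.9% beside 57.4% for TADs with 6 or more starts.

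Where a counterpart existed it usually had no coding start either. This held for 92 of the 104 counterparts of 2D members (88.5%, 80.9 to 93.3%) and 92 of the 107 of 3D members (86%, 78.2 to 91.3%), and 75 of these matches had identical ends. The other counterparts, 12 in 3D and 15 in 2D, held a median of 1 start and at most 2 and 3. Since the ends of a counterpart differ by at most 40 kb, a similar gene content is largely built into the match.

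The most frequent place of members without a counterpart was within a larger TAD of the other culture. This was the case for 110 members in 2D (44%, 38 to 50.2%) against 20.3% of TADs with starts (19.1 to 21.6%), a difference of 23.7 points (17.5 to 30). In 3D it was the case for 38 members (20.2%, 15.1 to 26.5%) against 6.32% (5.57 to 7.15%), a difference of 13.9 points (8.71 to 20.3). These shares and those of the counterparts are parts of the same total and are not independent of each other. The members were also smaller than the TADs with starts, and these shares were not weighted to the sizes of the members. A further 28 members in 2D (11.2%) and 28 in 3D (14.9%) extended across the edge of a TAD of the other list. The TADs with starts did so in 9.23% and 19% of cases, so in 3D the members had the lower share. Another 8 members (3.2%) and 15 members (7.98%) lay whole in an interval that the other list left unassigned, against 2.11% and 4.93%. For both places the intervals of members and other TADs overlapped in each list.

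**Figure D4:**
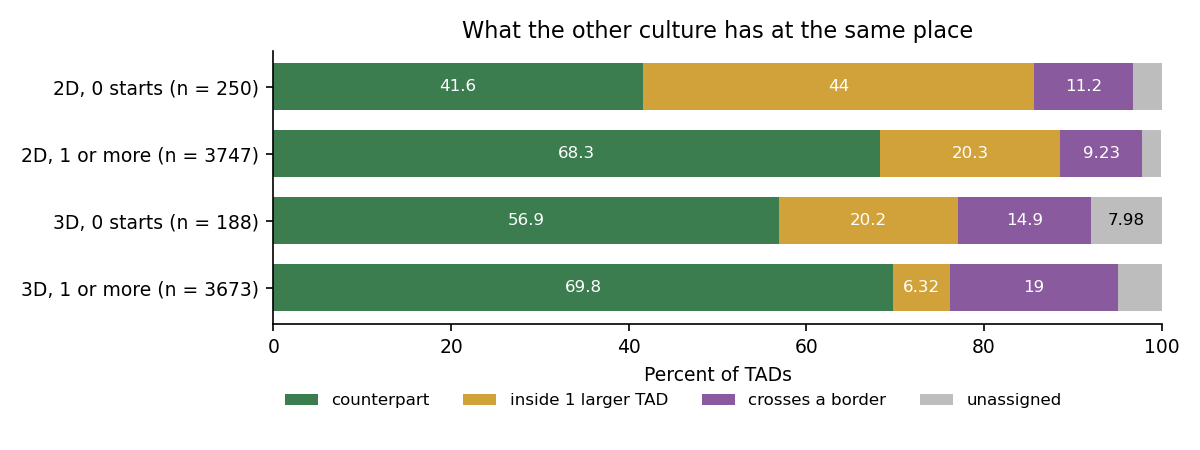
Bars show the percentage of TADs, for members (0 starts) and TADs with 1 or more starts in each list, that had a counterpart in the other culture, lay inside 1 larger TAD, crossed the edge of a TAD, or lay in an unassigned interval. In 2D 44% of members lay inside a larger 3D TAD, against 20.3% of TADs with starts.

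The larger TADs around the 2D members, 99 distinct TADs of the 3D list, measured a median of 640 kb (quartiles 400 and 1400 kb), weighted by the members they hold, and contained a median of 2 coding starts and at most 43. Those around the 3D members, 35 TADs of the 2D list, measured a median of 520 kb (370 and 1050 kb) with a median of 2 starts and at most 9. Of the members inside a larger TAD, 72 in 2D and 28 in 3D shared 1 of its ends within 40 kb, and 38 and 10 shared none. In 11 cases in 2D and 9 in 3D the surrounding TAD also had no coding start. In the other cases the other culture placed the interval in a TAD together with at least 1 coding start.

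The borders of the members were also less often shared. A counterpart needs both ends within 40 kb, so this is not independent of the counterpart shares. In 2D, 310 of the 479 member borders had a 3D border within 40 kb (64.7%, 60.3 to 68.9%), against 83.8% of the other borders (82.8 to 84.8%). In 3D, 293 of 361 had a 2D border within 40 kb (81.2%, 76.8 to 84.9%), against 90% (89.1 to 90.8%). Members had unassigned intervals on both sides in 16.8% of cases in 2D (12.7 to 21.9%) and 14.4% in 3D (10.1 to 20.1%), against 12.8% (11.7 to 13.9%) and 7.87% (7.04 to 8.78%) of the TADs with starts. At least 1 side was unassigned for 58% of members in 2D and 44.1% in 3D, close to the 56.3% and 44.9% of the other TADs.

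Among the members themselves, the shares were also split by position relative to genes. A counterpart was found for 34.9% of the 86 members free of gene bodies in 2D (25.7 to 45.4%), for 48.5% of the 101 partly covered (39 to 58.1%) and for 39.7% of the 63 covered whole (28.5 to 52%). In 3D the shares were 50% of 56 (37.3 to 62.7%), 62.2% of 82 (51.4 to 71.9%) and 56% of 50 (42.3 to 68.8%). Partly covered members had the highest share in both lists, with overlapping intervals. A lncRNA started in 25.4% of the members covered whole in 2D (16.3 to 37.3%) and 24% in 3D (14.3 to 37.4%), below the 51.2% (40.8 to 61.4%) and 48.2% (35.7 to 61%) of members free of gene bodies.

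Among the individual members, the longest member of the 3D list was the TAD at chr1:75600001-77360000, of 1760 kb, which had identical ends in 2D. It extends from 53.7 kb beyond the start of Slc4a3, an anion exchanger gene, to 155 kb left of the start of Epha4. Epha4 lies on the minus strand, so its body stands between the TAD and its start, and the TAD is not upstream of it. No coding gene body reached into the TAD. Inside it, 4 lncRNAs (Gm29065, Gm29069, Gm17751 and Gm816) and Mir6343 started. The motif match printed above lay 2.17 kb outside its left border.

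The longest member of all was chr14:89040001-90920000 in 2D, of 1880 kb, between Pcdh20 at 569 kb and Pcdh9 at 2971 kb, both protocadherin genes. Its GC content was 35.9%, and 42.5% of it consisted of repeats. In 3D the TAD had the same start and ended earlier, at 90680000, which made it 1640 kb long and left it without a counterpart under the 40 kb rule, although it was a member there too. The remaining sequence belonged to a 3D TAD of 3240 kb with 1 start.

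A pair of 2D members measured 1800 kb each. The first, chr15:13360001-15160000, lies between the cadherin genes Cdh6 (186 kb away) and Cdh9 (1569 kb away) and held 2 lncRNA starts and 8 pseudogenes. In 3D it was divided between a TAD of 1040 kb with 1 start and a TAD of 5280 kb with 2 starts. The second, chr15:62000001-63800000, starts 14.6 kb beyond the start of Myc, the transcription factor and proto-oncogene, and ends 8.76 kb left of that of Gsdmc. Gsdmc lies on the minus strand, and its body reaches into the TAD. It held 8 lncRNA starts, among them Pvt1. In 3D it was part of the TAD chr15:61080001-63840000, of 2760 kb with 2 starts.

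In 3D the second longest member was chr16:6720001-8400000, of 1680 kb, of which 41.2% is the body of Rbfox1, a gene for a neuronal splicing factor that starts 835 kb away. In 2D the interval was within a TAD of 1960 kb with 1 start. A further pair of members had the same ends in both lists. One, chr12:89400001-90720000, of 1320 kb, lay for 70.8% of its length within the body of Nrxn3, a neurexin gene. It ended 18.4 kb left of the start of Dio2, a thyroid hormone deiodinase gene on the minus strand. Another, chr16:71240001-72240000, of 1000 kb, was free of coding gene bodies and ended 68.3 kb before the start of Robo1, an axon guidance receptor gene. These last 2 were chosen after their values were seen.

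The member of the 2D list with the most lncRNA starts was chr9:41200001-42000000, of 800 kb, which had identical ends in 3D. It contained 11 lncRNA starts and the miRNA genes Mir100, Mirlet7a-2 and Mir125b-1, a cluster conserved among animals. Ubash3b starts 38.3 kb to the left and Sorl1, a sorting receptor gene, 124 kb to the right, and 4.41% of the TAD lies within the body of Sorl1. Both borders had a motif match, 5.47 kb inside on the left and 17.3 kb inside on the right. The left match was on the minus strand and the right match on the plus strand. In 3D the most lncRNA starts, 13, fell in chr18:81080001-82040000, of 960 kb, between Sall3, a zinc finger gene (93.2 kb away), and Galr1, a galanin receptor gene (367 kb away). In 2D that interval was divided between a TAD of 1040 kb with 1 start and a member of 160 kb.

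The longest members without any annotated gene start overlapped long genes. In 2D this was chr17:62480001-62880000, of 400 kb, 69% of it in the body of Efna5, an ephrin gene that starts 1.32 kb beyond its right end. In 3D the same interval belonged to a TAD of 4000 kb with 3 starts. In the 3D list it was chr4:102200001-102480000, of 280 kb, whole inside Pde4b, and in 2D part of that interval was a member of 160 kb.

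**Figure D5:**
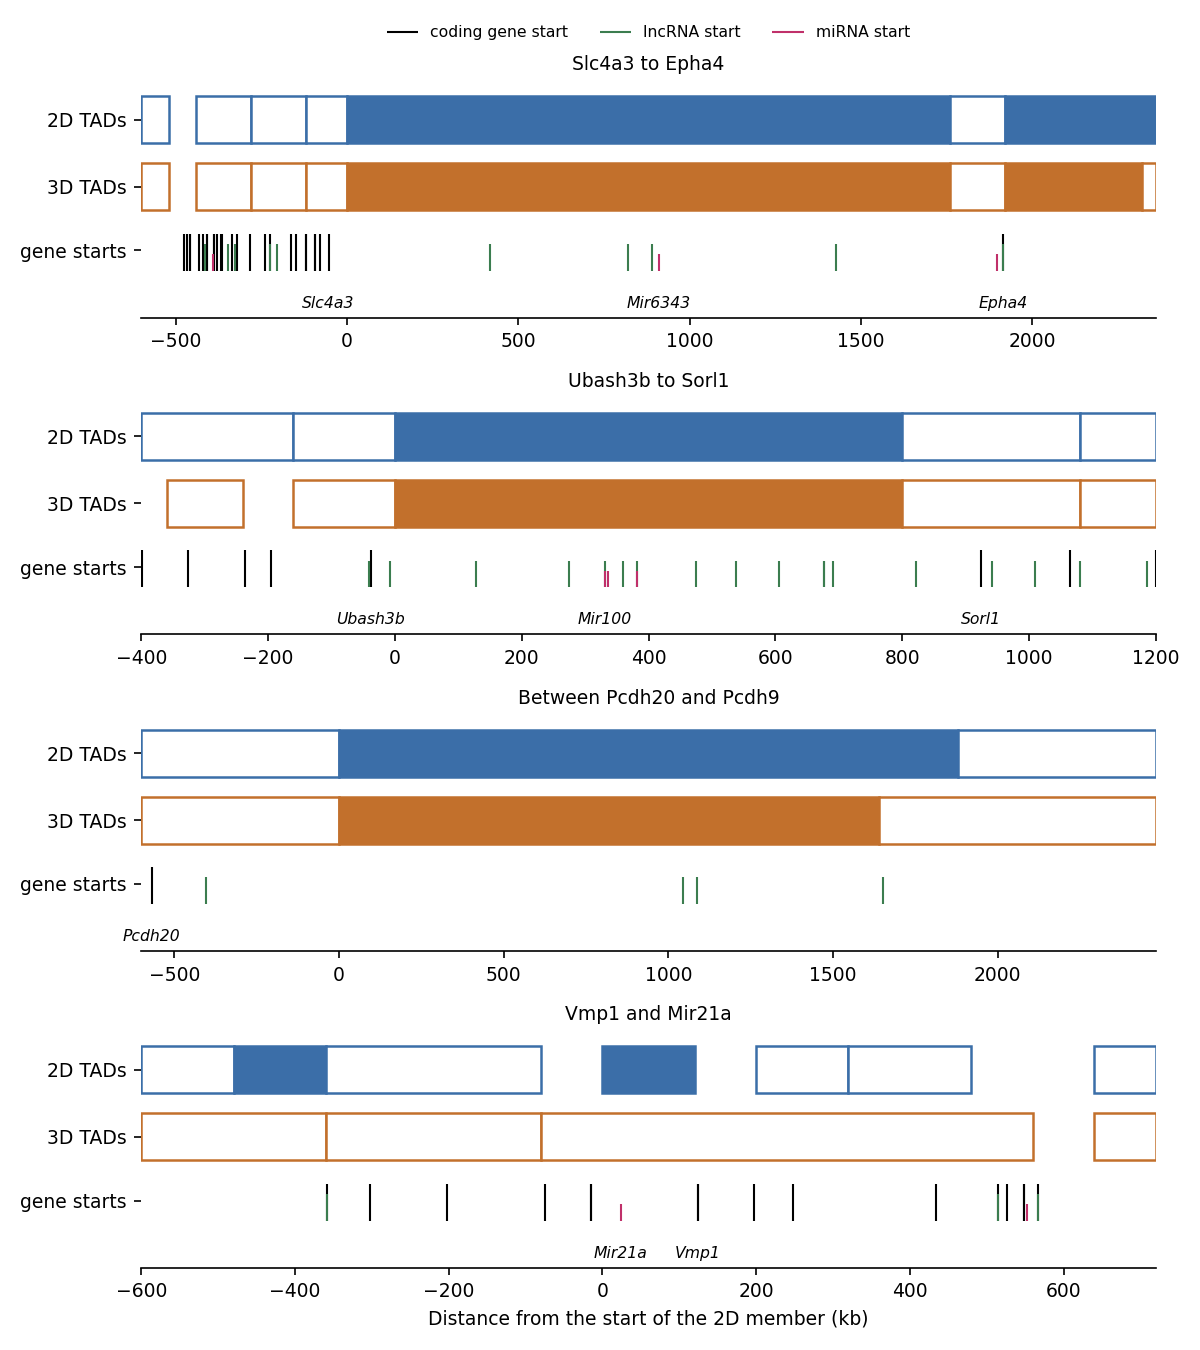
TADs called in 2D (blue) and in 3D (orange) are drawn to scale around 4 members, with filled boxes for TADs of any size without a coding start, and open boxes for TADs with starts, against the distance in kb from the start of the 2D member. Gaps are unassigned intervals, boxes are cut at the panel edges, and ticks mark the starts of coding genes, lncRNAs and miRNAs. The 1760 kb TAD between Slc4a3 and Epha4 and the 800 kb TAD with Mir100 have the same ends in both lists. The TAD beside Pcdh20 ends earlier in 3D, and the 120 kb TAD with Mir21a lies within a 640 kb TAD in 3D.

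Several miRNA genes lay in members at the same place in both cultures. Mirlet7b and Mirlet7c-2, which share a seed, lay with Lncppara in chr15:85600001-85720000, a TAD of 120 kb with identical ends in both lists, 17.5 kb from the start of Wnt7b and 15 kb from that of Ppara. At 50.9% its GC content was above the median of the members. Mirlet7i, with the same seed, lay in chr10:122800001-123000000, of 200 kb in both lists, between the starts of Ppm1h and Mon2. Mir193b and Mir365-1, a pair of genes transcribed from 1 locus, shared chr16:13440001-13640000, of 200 kb in both lists, with Mir6365. Mir148a, which is highly expressed in liver, lay in a member that starts at chr6:51200001 and measured 200 kb in 2D and 160 kb in 3D. Mir205, known from epithelia, lay in the desert before Plxna2, of 1120 kb in 2D and 1160 kb in 3D.

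Other miRNA genes lay in a member in 2D alone. Mir21a, within the body of Vmp1, was in chr11:86560001-86680000, of 120 kb, and in 3D in chr11:86480001-87120000, of 640 kb with 12 coding starts. Mir29a and Mir29b-1, whose products are known to repress collagen genes, were together in chr6:31040001-31160000, of 120 kb, and in 3D both were in an unassigned interval. Mir140 and Mir9-3 each lay in a TAD of 120 kb in 2D that measured 160 kb and held 1 start in 3D, so that these changes amount to 1 bin. Mir124a-2, of a family known from neurons, lay in a 2D member of 1640 kb and a 3D TAD of 2880 kb with 3 starts.

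In 3D alone, Mir122, the gene of the most abundant miRNA of hepatocytes, was in a member, chr18:65000001-65280000, of 280 kb between the starts of Nedd4l and Alpk2. In 2D it was in chr18:64880001-65280000, of 400 kb with 1 start, so the right end was the same and only the left end differed. Mir155, known from immune cells, lay in the 3D member chr16:84600001-84720000, of 120 kb, and in 2D in an unassigned interval. Mir599 and Mir875, within Vps13b, lay in a 3D member of 320 kb and were likewise unassigned in 2D. Of the 64 miRNA genes, 28 lay inside the body of a coding gene.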

How the data were processed

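In situ Hi-C was performed on 2D- and 3D-cultured AML12 cells, 4 libraries in all. The values the authors deposited are of another kind than counts: mm10 coordinates at which each TAD begins and ends, with a separate list for either culture. The authors mapped reads with Bowtie 2 (version 2.2.9), removed invalid pairs, combined replicates, normalized 40 kb matrices with ICE, scaled each chromosome to equal depth and called TADs with Armatus. That TADs depend on a 40 kb grid limits each border to 1 bin.

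Genes were taken from GENCODE M21, bases and repeats from GRCm38 (the same assembly as mm10) and miRNA sequences from RefSeq. Coordinates are 1-based. Sizes, overlaps and Wilson intervals (difference of shares, Newcombe) were computed with scipy 1.17.1, pandas 2.3.3 and numpy 2.4.6 under Python 3.11.15, and tested on simulated lists. No p-value was computed. The members and gene lists were chosen with earlier results of these data known. Named regions were the 3 longest members of each list, the longest runs, those with most lncRNA starts, with a miRNA, with no annotated gene, without counterpart and covered by 1 gene, with their neighbours and listed genes. Alternatives varied the membership rule, the counterpart rule and the gene classes.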

Additional observations from a re-analysis of the deposited data

How the results depend on the processing

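No paired analysis was possible because each list was called on both replicates pooled, and for the same reason no replicate could be left out. Over 13 alternative settings, 109 values were recomputed. None of them changed the sign of a difference, 72 moved by less than their interval or 1.5 times, and 37 moved further. With 0 transcript starts, however, members overlapped by a gene body no longer outnumbered the others, as given below. The numbers of members depended most on the rule: 108 in 2D and 85 in 3D for TADs of at least 200 kb, 124 and 83 with 0 transcript starts, 110 and 74 with 0 starts also within 40 kb outside, and 86 and 56 with 0 overlap with a coding gene body. The difference in number, 3D minus 2D, was -62 and became -23, -41, -36 and -30 in that order. Among TADs of at least 200 kb the medians of size were 320 (2D) and 280 kb (3D), a lncRNA started in 67.6% and 60% of members, and 48.1% of 2D members had a counterpart. With 0 transcript starts, a counterpart was found for 33.9% and 48.2%, a difference from other TADs of -33.9 and -21.4 points, and 30.6% and 32.5% were overlapped by a gene body. With 0 starts within 40 kb outside, 51.8% and 51.4% were overlapped, and with full cover by 1 gene required, 25.2% and 26.6%. Without gene bodies, 34.9% of 2D members had a counterpart. A counterpart required to have identical ends was found for 30% and 39.9%, with a 2D difference of -18.5 points, within 80 kb for 50.4% and 64.4%, and by 50% reciprocal overlap for 58.8% and 69.7%. With TEC genes counted as lncRNAs, 58% and 53.2% of members held one. Without the snoRNA array, an alternative added after seeing the data, small RNA starts per Mb of members went from 2.74 to 1.27 in 2D and from 2.27 to 1.15 in 3D. The cause of the other shifts was not tested beyond what each rule fixes. The lists carry no depth, so weakly and strongly supported borders cannot be told apart.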

Other observations

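On chromosome X, which the rule leaves out, TADs without a coding start were 47 of 234 of at most 2000 kb in 2D (20.1%, 15.5 to 25.7%) and 34 of 248 in 3D (13.7%, 9.98 to 18.5%). A counterpart was found for 18 of the 47 (38.3%, 25.8 to 52.6%) and 16 of the 34 (47.1%, 31.5 to 63.3%), against 58.3% (51.1 to 65.1%) and 51.9% (45.2 to 58.5%) of the TADs on X with starts. The interval chrX:83920001-85000000, of 1080 kb and covered whole by coding gene bodies, had identical ends in both lists.

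Among the autosomal TADs over 2000 kb, 8 of 224 in 2D and 10 of 233 in 3D had no coding start, with sizes up to 4120 and 3560 kb. Of these, 6 and 7 had a counterpart. The TAD between the starts of Stim2 and Pcdh7, chr5:54120001-57680000, of 3560 kb with 1.06 kb of coding gene body, and the TAD between the starts of Epha7 and Map3k7, chr4:28840001-31960000, of 3120 kb with 127 kb of coding gene body, had identical ends in both lists.

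Immunoglobulin and T cell receptor segments are annotated apart from protein-coding genes. Such segments started in 4 members in 2D (1.6%) and 1 in 3D (0.532%), against 0.187% and 0.163% of the TADs with coding starts. In 2D these were chr12:115280001-116040000 with 28 segment starts and chr14:52600001-52760000, chr14:53760001-54040000 and chr14:54040001-54240000 with 8, 11 and 59. In 3D it was chr14:52520001-52640000 with 4. None of these members had a counterpart in the other list.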
